A study of Mus musculus with 17 samples.

Results

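The genes described here are those whose difference between Nat10 knockout (SKO) and wild-type (WT) libraries was not the same in the sorted stages compared. The stages are spermatogonia (SPG) and pre-leptotene spermatocytes (PreL), the cells that enter meiosis. The genes were found by subtracting the SKO effect in SPG (SKO minus WT) from the SKO effect in PreL, on log2 values of 12 libraries out of the 17 of the series. A positive interaction therefore means that the SKO value, relative to WT, was higher in PreL than in SPG, and a negative interaction the opposite. Of 23282 genes in the table, 13079 had a mean of at least 10 reads over the 12 libraries and were tested. The interaction was called for 24 of them (0.184%), of which 19 were more positive in PreL (0.145%) and 5 more negative (0.0382%). Of the 19, 5 reached the minimum of reads only through SKO PreL, so their direction was fixed by the way they entered. With an unadjusted p under 0.05, 6.78% of the genes tested were more positive and 7.91% more negative.

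The SKO mice (genotype label Stra8-cre_Nat10_KO) were Nat10 fl/-;Stra8-Cre animals, in which Cre made in germ cells from a Stra8-GFPCre knock-in removes exons 4 and 5 of Nat10, and the controls were wild type. Both were of the C57BL/6 strain by the labels (C57BL/6J in the study's methods), and the age of the mice used for sequencing is not given in the sources used here. SPG and PreL cells were sorted by FACS on DNA content dye, and polyadenylated RNA was amplified by Smart-seq2, with 3 WT and 3 SKO libraries in each stage. A supplementary legend of the study calls the libraries of a group biological replicates, but whether they came from separate animals is not stated. The p-values therefore measure the spread between libraries only. The driver sits at the Stra8 gene itself, and whether the WT mice carried it is not stated either.

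NAT10 is an RNA cytidine acetyltransferase that makes N4-acetylcytidine in ribosomal, transfer and messenger RNA. Spermatogonia divide by mitosis until retinoic acid induces STRA8, a transcription factor that works with MEIOSIN and turns on the meiotic program in pre-leptotene cells, which replicate their DNA a last time before the meiotic divisions. Mitosis itself runs on a group of genes of the G2 and M phases, among them the B-type cyclins and the kinases CDK1 and PLK1. Their promoters often hold a CHR element (TTTGAA) near the start site and CCAAT boxes before it.

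Nat10 itself (chr2:103721258-103762954 on GRCm38.p6, minus strand) was lower in SKO in both stages, and its interaction was not called. Its rescaled value, the deposited value divided by a size factor of the library, was 561, 498 and 589 in the WT SPG libraries and 234, 320 and 344 in the SKO SPG libraries. It was 550, 609 and 398 in WT PreL and 235, 212 and 170 in SKO PreL. The groups did not overlap in either stage. The SKO effect was -0.87 in SPG (adjusted p = 0.0199) and -1.28 in PreL (adjusted p = 0.00152), and the interaction was -0.41 ± 0.33 (SE, n = 3 libraries a group, adjusted p = 0.590). The gene-level count also takes reads from the exons that the deletion leaves.

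Depth was even: 9885136 to 13042071 reads per library, with 14493 to 17818 genes detected. The values of replicates differed from each other by more than counting noise, and chi-square divided by its degrees of freedom was 8.28 at the least and 35.6 at the most among pairs of 1 group. The calibration factor that the authors set from the ERCC spike-in ran from 1 to 1.63 in the other 9 libraries and from 2 to 2.48 in SKO PreL. The calibrated values used without rescaling shift the median interaction of all genes from 0.01 to 0.96. By them 5668 genes are called, 98.0% of them more positive, against 79.2% of the 24 genes called here. The 79.2% includes the genes that reached the minimum of reads only through SKO PreL. SKO PreL replicate 3 stood apart from replicates 1 and 2 in markers of somatic testis cells: the 16 Sertoli cell genes of the table summed to 379 RPM (reads scaled to the total of the library) there and to 2601 and 2933 in the other two libraries. WT PreL replicate 2 stood apart in markers of late spermatocytes, at 2628 RPM against 1548 and 1248.

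The lowest p-values for the interaction were those of the mitotic genes Cenpa and Ccnb1, followed by Arl6ip1, which is described below. Cenpa, the histone H3 variant of centromeres, had rescaled values of 6745, 5988 and 6740 in WT SPG and of 3139, 3920 and 3669 in SKO SPG. In PreL the order was turned: 1900, 1478 and 1375 in WT against 4549, 4488 and 5315 in SKO. All SKO libraries lay below WT in SPG and above WT in PreL. The SKO effect went from -0.86 (adjusted p = 0.000851, under the 2-fold limit set for a stage) to 1.60 (adjusted p = 2.32e-06), an interaction of 2.46 (95% interval 2.05 to 2.87, adjusted p = 1.31e-05). Seen along the stages, Cenpa fell in WT from SPG to PreL (log2 change -2.04, adjusted p = 1.28e-06), while the change in SKO was 0.42 (adjusted p = 0.0695).

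Ccnb1, which encodes cyclin B1, the partner of CDK1 at entry into M phase, behaved alike. It read 5445, 5611 and 6177 in WT SPG, 3597, 4405 and 4957 in SKO SPG, 2109, 1694 and 1878 in WT PreL and 6719, 6474 and 8419 in SKO PreL. The SKO libraries were again all below WT in SPG and all above WT in PreL. The SKO effect was -0.42 in SPG (adjusted p = 0.0571) and 1.92 in PreL (adjusted p = 4.63e-07), with an interaction of 2.34 (95% interval 1.92 to 2.76, adjusted p = 2.04e-05). From SPG to PreL it fell by 1.60 on the log2 scale in WT (adjusted p = 2.18e-05) and changed by 0.74 in SKO (adjusted p = 0.00594). Cenpa and Ccnb1 were called in all 12 fits that left out 1 library and in all 11 other alternatives.

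The promoter windows of the 4 called G2/M genes and of Stra8 are shown here because these genes carry the opposite changes. Each runs from 250 bases before to 50 after the start site (RefSeq, GRCm38.p6), 5′ to 3′ on the strand of the gene. Capitals mark TTTGAA and the CCAAT box (CCAAT or, on the other strand, ATTGG). Cenpa lies on the plus strand at chr5:30666636-30666935, Ccnb1 on the minus strand at chr13:100786437-100786736, Plk1 on the plus strand at chr7:122159185-122159484, Ccnb2 on the minus strand at chr9:70421505-70421804 and Stra8 on the plus strand at chr6:34920698-34920997. The RefSeq gene of Stra8 spans 34920163 to 34939344, so its window lies inside the annotated gene and not before its outermost start.
Cenpa: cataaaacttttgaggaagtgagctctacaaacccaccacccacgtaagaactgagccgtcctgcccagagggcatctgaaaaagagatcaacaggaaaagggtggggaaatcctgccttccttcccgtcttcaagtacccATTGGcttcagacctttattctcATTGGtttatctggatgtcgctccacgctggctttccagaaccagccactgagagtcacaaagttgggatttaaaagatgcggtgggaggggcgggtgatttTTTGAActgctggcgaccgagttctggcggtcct
Ccnb1: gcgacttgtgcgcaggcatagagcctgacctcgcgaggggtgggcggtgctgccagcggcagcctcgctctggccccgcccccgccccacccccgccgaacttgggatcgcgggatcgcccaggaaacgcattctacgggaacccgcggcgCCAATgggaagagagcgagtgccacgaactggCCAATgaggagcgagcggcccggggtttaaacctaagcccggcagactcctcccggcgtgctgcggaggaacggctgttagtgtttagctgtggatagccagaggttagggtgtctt
Plk1: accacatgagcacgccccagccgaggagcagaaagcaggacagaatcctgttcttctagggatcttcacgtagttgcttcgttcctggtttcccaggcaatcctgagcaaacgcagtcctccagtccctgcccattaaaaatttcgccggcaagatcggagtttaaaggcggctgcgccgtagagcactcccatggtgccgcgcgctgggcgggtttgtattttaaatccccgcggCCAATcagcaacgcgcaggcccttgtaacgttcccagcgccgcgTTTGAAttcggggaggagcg
Ccnb2: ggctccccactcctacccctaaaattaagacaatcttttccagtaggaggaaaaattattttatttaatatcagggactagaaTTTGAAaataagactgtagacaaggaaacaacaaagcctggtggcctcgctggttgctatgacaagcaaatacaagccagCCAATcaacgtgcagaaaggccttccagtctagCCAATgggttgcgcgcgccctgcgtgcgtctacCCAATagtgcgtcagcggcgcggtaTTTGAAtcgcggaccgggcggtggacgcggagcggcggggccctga
Stra8: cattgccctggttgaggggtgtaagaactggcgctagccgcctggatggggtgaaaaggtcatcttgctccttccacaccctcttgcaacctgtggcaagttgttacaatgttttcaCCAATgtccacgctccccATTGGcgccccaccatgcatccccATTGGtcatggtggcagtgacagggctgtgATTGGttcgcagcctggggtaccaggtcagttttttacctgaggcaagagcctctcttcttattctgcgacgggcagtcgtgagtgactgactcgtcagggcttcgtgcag
TTTGAA began 17 bases after the start site in Cenpa, 31 after it in Plk1 and 5 after it in Ccnb2, whose window held another at position -167, and it was not in the windows of Ccnb1 or Stra8. A CCAAT box was in all 5. Both strands were searched, and the 2 motifs were chosen after the values were seen. Other forms of the CHR element were not searched, so a window without TTTGAA is not shown to lack the element. Of the 20 genes of the G2/M list with a window, 14 held TTTGAA and 17 a CCAAT box, against 12.1% and 39.5% of the 10435 tested genes with a window and 18.1% and 37.9% of all 27025 promoters. Of the called genes, 6 of the 15 positive ones with a window and 1 of the 4 negative ones held TTTGAA, and 7 of the 15 and 1 of the 4 a CCAAT box. The STRA8/MEIOSIN motif CNCCTCAG was in 3 of the 15 and 2 of the 4 (9.44% of tested genes), and none of the 19 windows held TTTCCCGC of E2F (2.16% of tested genes), the E-box CACGTG (10.4%), the AP-1 motif TGANTCA (4.76%) or TCAAGGTCA of NR5A1 (0.297%). TGACGTCA, the CRE, was in 1 of them, Chmp2a (3.31% of tested genes). A match is a description of the letters and not a bound site.

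Plk1 and Ccnb2 completed the mitotic group, with smaller margins. Plk1, the polo-like kinase of mitosis, had rescaled values of 653, 569 and 658 in WT SPG, 191, 179 and 281 in SKO SPG, 392, 252 and 294 in WT PreL and 366, 386 and 675 in SKO PreL. The genotypes were apart in SPG and overlapped in PreL. Its effect was called in SPG (-1.51, adjusted p = 0.00167) and not in PreL (0.56, adjusted p = 0.158), so it counts as lost at meiotic entry, with an interaction of 2.07 (adjusted p = 0.0475). Ccnb2, for cyclin B2, had 2968, 3397 and 3876 in WT SPG, 2256, 2409 and 3029 in SKO SPG, 1886, 1616 and 1657 in WT PreL and 2582, 2489 and 3144 in SKO PreL. Its genotypes overlapped in SPG, were apart in PreL, and gave an interaction of 1.08 (adjusted p = 0.0483). Each of these was called in 2 of the 12 fits that left out a library. Exons of Plk1 overlap Gm44985 on the opposite strand, and Smart-seq2 does not mark the strand.

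**Figure D1:**
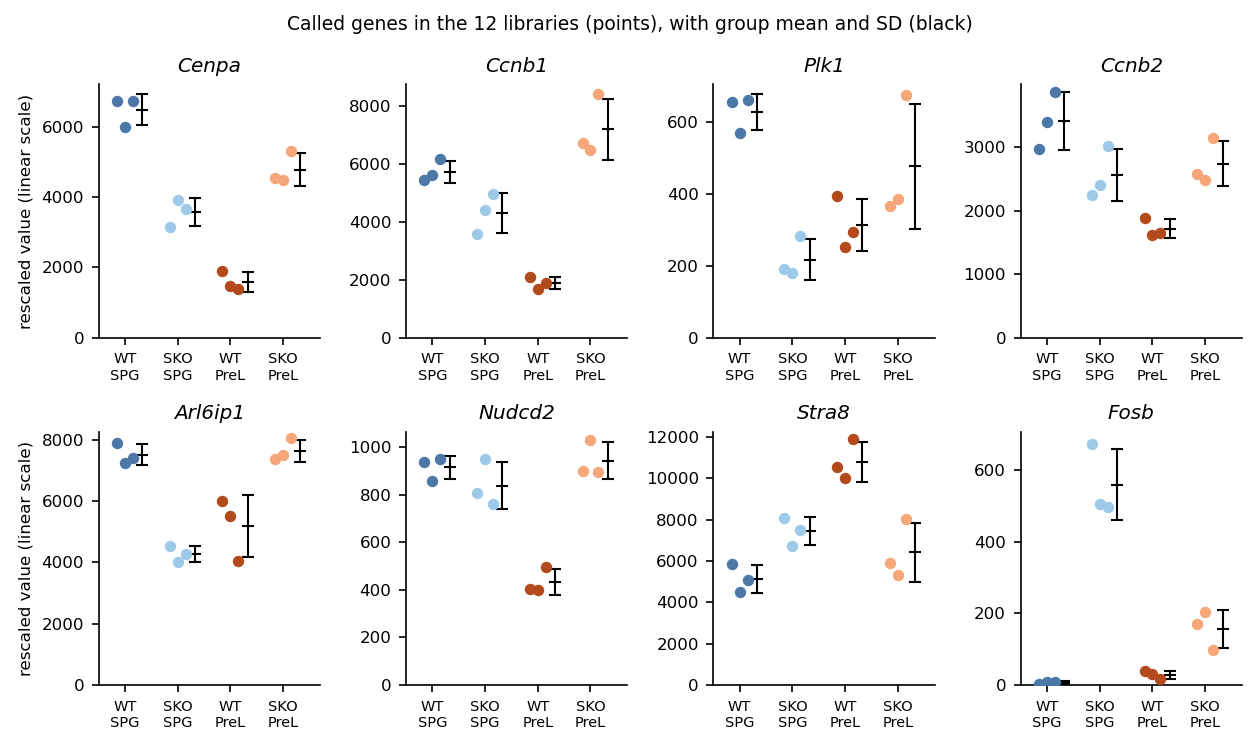
Rescaled values (linear axes from 0) of 8 called genes in the 12 libraries, by group; points are libraries, and the black mark and bar are the group mean and SD (n = 3). Cenpa and Ccnb1 are lowest in WT PreL, where the SKO values stay high, and Stra8 is highest in WT PreL.

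In the G2/M list as a whole, 25 genes were tested and 4 were called (Cenpa, Ccnb1, Plk1, Ccnb2), against 0.184% of all genes. A further description is given by the unadjusted p: 15 of the 25 were more positive in PreL with p under 0.05 and 0 more negative, where over all genes 6.78% were more positive and 7.91% more negative (14.7% in either direction). The median interaction of the list was 0.60, against 0.01 over all genes tested. The median SKO effect was -0.48 in SPG and 0.09 in PreL, and the median change from SPG to PreL was 0.20 in WT and 0.68 in SKO. Ccna2, for cyclin A2 (interaction 0.91, adjusted p = 0.0692), Ube2c, the ubiquitin-conjugating enzyme of the anaphase-promoting complex (1.54, adjusted p = 0.0752), Cdk1 (1.22, adjusted p = 0.0877), Kif20a, a kinesin of cytokinesis (1.44, adjusted p = 0.1004), and Cdc20, an activator of the anaphase-promoting complex (1.10, adjusted p = 0.132), did not pass the test and were named after their values were seen. The lowest of the 4 estimates under 0 was that of Top2a, for topoisomerase II alpha, at -0.36 (adjusted p = 0.441), which turned to 0.64 without rescaling. The median of the list ran from 0.54 to 0.67 over the fits without a library, and 2 to 7 genes of it were called.

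**Figure D2:**
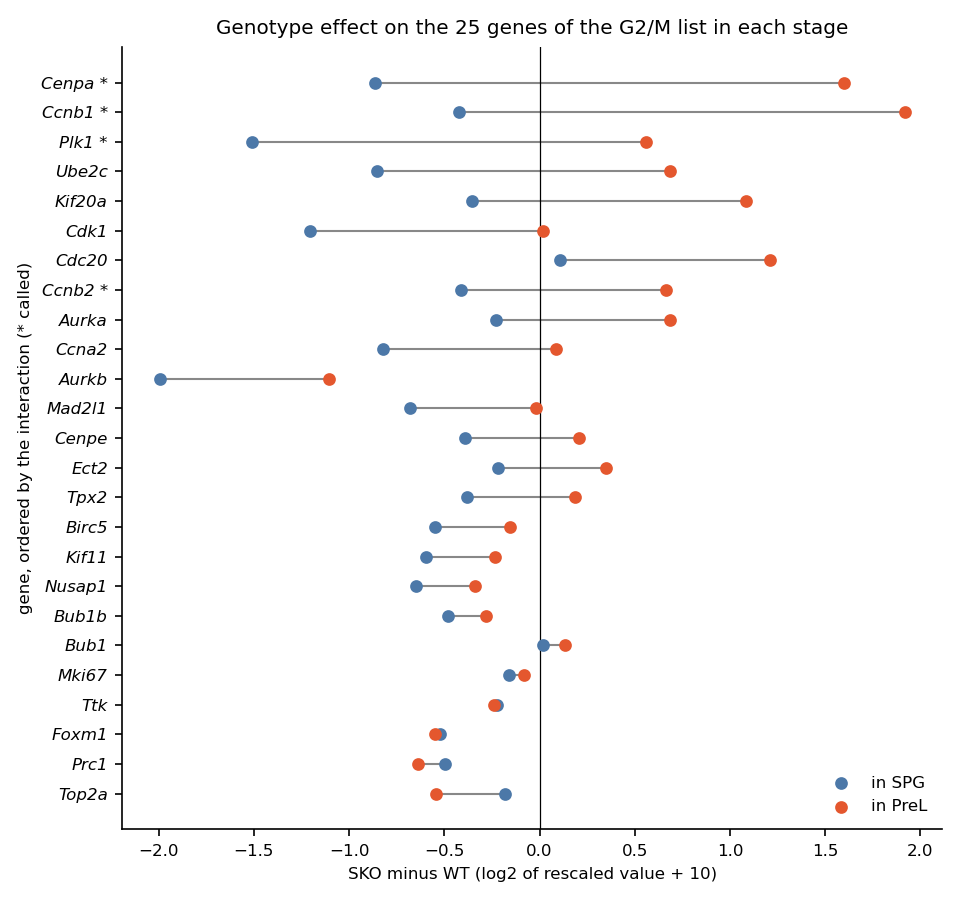
SKO effect (log2 of rescaled value + 10) on the 25 tested genes of the G2/M list in SPG (blue) and PreL (red), ordered by the interaction, the distance between the points; an asterisk marks the 4 genes called. For 21 of the 25 genes the PreL point lies to the right of the SPG point.

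DNA replication genes, also of dividing cells, are set beside it. Of 34 DNA replication genes tested 0 were called, and the median interaction was -0.12. With an unadjusted p under 0.05, 1 was more positive and 7 more negative. Over all genes tested 0.184% were called, 6.78% were more positive and 7.91% more negative by these limits. A list of this size with 0 called is near the share called over all genes. Pcna, the sliding clamp of the replication fork, was lower in SKO in both stages by estimates of -0.69 in SPG and -0.83 in PreL (interaction -0.14, adjusted p = 0.697). Rfc4, a subunit of the clamp loader, had an interaction of -0.50 (adjusted p = 0.278). Both signs turned without rescaling.

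Stra8 moved the other way. Its rescaled value was 5854, 4481 and 5095 in WT SPG and 8077, 6750 and 7517 in SKO SPG, and 10567, 10007 and 11891 in WT PreL against 5915, 5323 and 8017 in SKO PreL. All SKO libraries were above WT in SPG and below WT in PreL. The SKO effect was 0.54 in SPG (adjusted p = 0.0253) and -0.77 in PreL (adjusted p = 0.00248), both under the 2-fold limit of a stage, and the interaction was -1.31 ± 0.21 (SE, n = 3, 95% interval -1.76 to -0.86, adjusted p = 0.0340). Stra8 rose in WT from SPG to PreL (1.08, adjusted p = 0.000967), and its change in SKO was -0.23 (adjusted p = 0.379). The call held in 4 of the 12 fits without a library and in 6 of 11 other alternatives, and without rescaling the estimate was -0.31. The SKO mice carry the Cre knock-in at this gene, and its part in the reads was not tested.

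The other genes of meiotic entry were not called. Of 14 tested in that list Stra8 alone was called, and the median was 0.00. With an unadjusted p under 0.05, 3 were more negative and 0 more positive, against 7.91% and 6.78% over all genes. Cyp26b1, the enzyme that breaks down retinoic acid, had an interaction of -2.15 (adjusted p = 0.108): 96, 87 and 108 in WT SPG, 821, 421 and 436 in SKO SPG, 99, 71 and 103 in WT PreL and 140, 141 and 57 in SKO PreL. Its highest values were those of the 3 SKO SPG libraries. Of the genes of the meiotic chromosome axis, cohesin and synaptonemal complex 0 of 17 were called (median -0.08), and Sycp3, for a protein of the axis, had 0.38 (adjusted p = 0.429). Double-strand break and recombination genes gave 0 of 30 (median 0.01), telomere attachment genes 0 of 12 (median -0.27) and piRNA and germ granule genes 0 of 22 (median -0.05). Lists of these sizes with 0 called are near the 0.184% called over all genes.

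Genes whose effect appeared only in PreL numbered 11, all of them more positive. Besides Cenpa and Ccnb1 these held 5 genes of blood-derived cells and 4 others. The 5 genes reached the minimum of mean reads only through SKO PreL, so their direction was fixed by the way they entered. For them the shared direction is therefore not a separate result. Over all genes tested, the SKO effect in PreL was called higher for 694 and lower for 699. Igll1 encodes lambda5, a part of the surrogate light chain of B cell precursors, Vpreb3 encodes a related protein of the same cells, and Ly6d is a surface marker of early B cells. Vpreb3 had 102, 111 and 120 reads in SKO PreL, 0, 3 and 0 in WT PreL, and 0 in all 6 SPG libraries. Igll1 had 97, 90 and 67 reads in SKO PreL, 0 in the WT PreL libraries and at most 1 in any SPG library. Ly6d had 116, 61 and 67 reads in SKO PreL, at most 1 in WT PreL and 0 in SPG. All 3 SKO PreL libraries, replicate 3 included, thus held these reads, and the other groups were at or under the floor of 3 reads.

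Because the other groups were so low, the differences in PreL are given as bounds. Against a floor of 3 reads per library, the mean was at least 33.7-fold higher in SKO PreL than in WT PreL for Vpreb3, at least 25.5-fold for Igll1 and at least 24.6-fold for Ly6d. The fitted interactions, 3.86, 3.68 and 3.51, depend on the pseudocount of 10 (adjusted p = 0.0340, 0.0400 and 0.0476). Cma1, the chymase of mast cells, had 66, 86 and 50 reads in SKO PreL and 0 in WT PreL and SKO SPG, with 16 reads in WT SPG replicate 1 and 0 in the other two. Cpa3, a carboxypeptidase of mast cells, had 59, 61 and 62 reads in SKO PreL and at most 1 elsewhere. They were at least 20.2-fold and at least 18.4-fold higher in SKO PreL than in WT PreL, with adjusted p-values of 0.0483 and 0.0490 for the interaction. In sorted bulk samples, more cells of a type and more RNA per cell cannot be told apart.

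Wider lists of these cells were put together after the calls were seen. Of the 8 B cell progenitor genes tested 3 were called and 6 were more positive with an unadjusted p under 0.05, and of the 6 mast cell genes tested 2 and 2. Over all genes tested 0.184% were called and 6.78% were more positive with an unadjusted p under 0.05. The called members had few or no reads outside SKO PreL. They passed the filter of a mean of 10 reads only through that group, so the counts leaned to the positive side beforehand. The 18 B cell progenitor genes of the table summed to 78.1 to 89.8 RPM in SKO PreL, against 1.96 to 4.01 in WT PreL, 10.7 to 17.4 in SKO SPG and 2.58 to 8.11 in WT SPG. Pax5 alone was at 0 in every SKO PreL library, and 9 of the 18 were at 0 in every WT SPG library. Pou2af1, a B cell coactivator, had 78, 70 and 83 reads in SKO PreL and at most 8 elsewhere (adjusted p = 0.0752). The 12 mast cell genes summed to 36.1 to 44.4 RPM in SKO PreL, 10.7 to 13.7 in WT PreL, 26.2 to 28.1 in SKO SPG and 14.0 to 18.2 in WT SPG, with Fcer1a and Mrgprb2 at 0 in SKO PreL. Without the called genes, the other 15 B cell progenitor genes summed to 55.5 to 61.7 RPM in SKO PreL and to at most 17.4 in any other library, while the other 10 mast cell genes summed to 26.1 to 33.2 RPM in SKO PreL and 26.1 to 28.1 in SKO SPG, which overlap. Neither list was independent of the calls, and the reads of such cells were not tested as a part of other results.

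**Figure D3:**
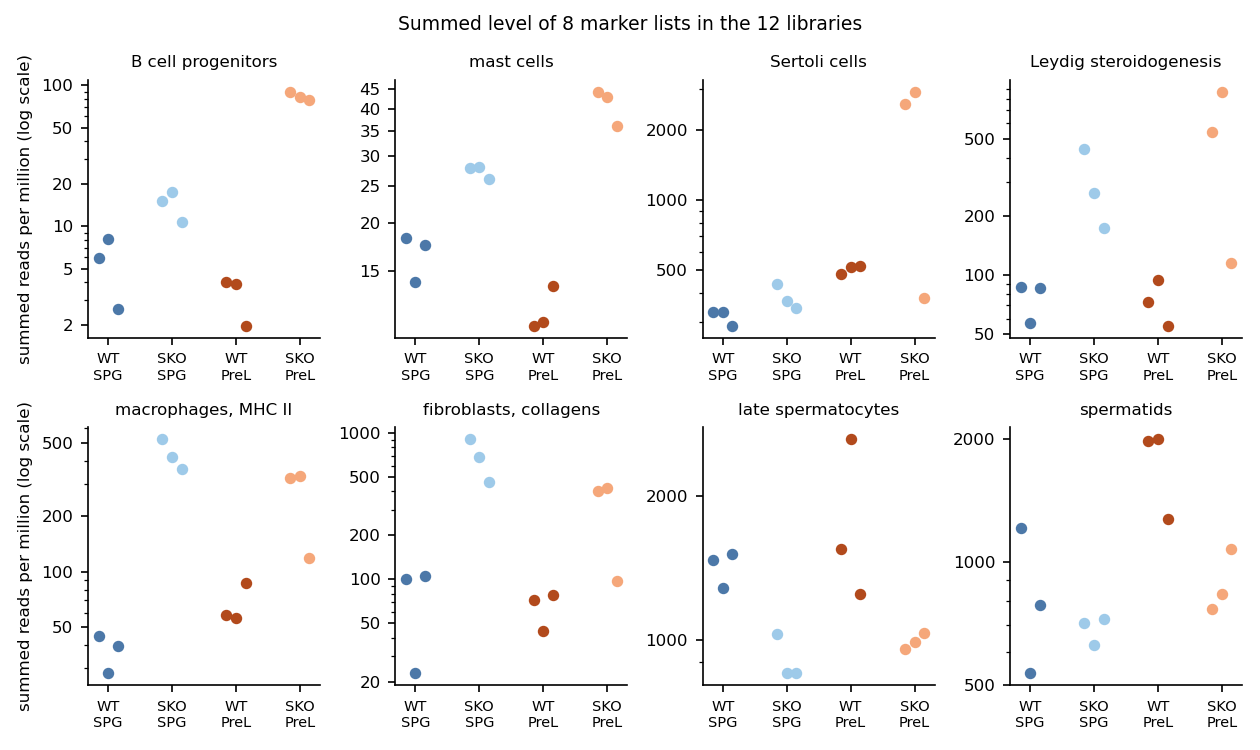
Summed RPM (log axes) of 8 marker lists in the 12 libraries, each point a library. The B cell progenitor genes lie between 78.1 and 89.8 in SKO PreL and under 18 in every other library, and the Sertoli cell genes are high in only 2 of the 3 SKO PreL libraries.

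The other 4 genes whose effect appeared in PreL had no such common origin. Nudcd2, for a NudC domain protein, had 936, 857 and 949 in WT SPG, 805, 948 and 760 in SKO SPG, 405, 399 and 494 in WT PreL and 900, 1032 and 894 in SKO PreL. Like Cenpa it fell in WT from SPG to PreL (-1.07, adjusted p = 0.00128) and not in SKO (0.17, adjusted p = 0.559), and its interaction was 1.24 (adjusted p = 0.0455). Pcmtd2, for a protein of the isoaspartate methyltransferase family, went from -0.98 in SPG to 1.20 in PreL (interaction 2.18, adjusted p = 0.0434), with SKO libraries all below WT in SPG and all above in PreL.

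The last of these 4 were transcripts related to ribosomal RNA. Rn45s, the 45S precursor of ribosomal RNA, had 15057, 8068 and 10376 in WT SPG, 8212, 6617 and 8053 in SKO SPG, 14688, 8809 and 10127 in WT PreL and 21078, 30516 and 41317 in SKO PreL. Gm20594, listed in RefSeq also as Mtrnr2l, a nuclear gene named for its likeness to the mitochondrial large ribosomal RNA, had 755, 795 and 839 in WT SPG, 876, 751 and 634 in SKO SPG, 760, 935 and 1232 in WT PreL and 2418, 2496 and 2272 in SKO PreL. For both, every SKO PreL library was above every other library. The interactions were 1.95 (adjusted p = 0.0455) and 1.40 (adjusted p = 0.0445). Both share sequence with many copies elsewhere, and the library was primed on poly(A), so these values are uncertain.

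**Figure D4:**
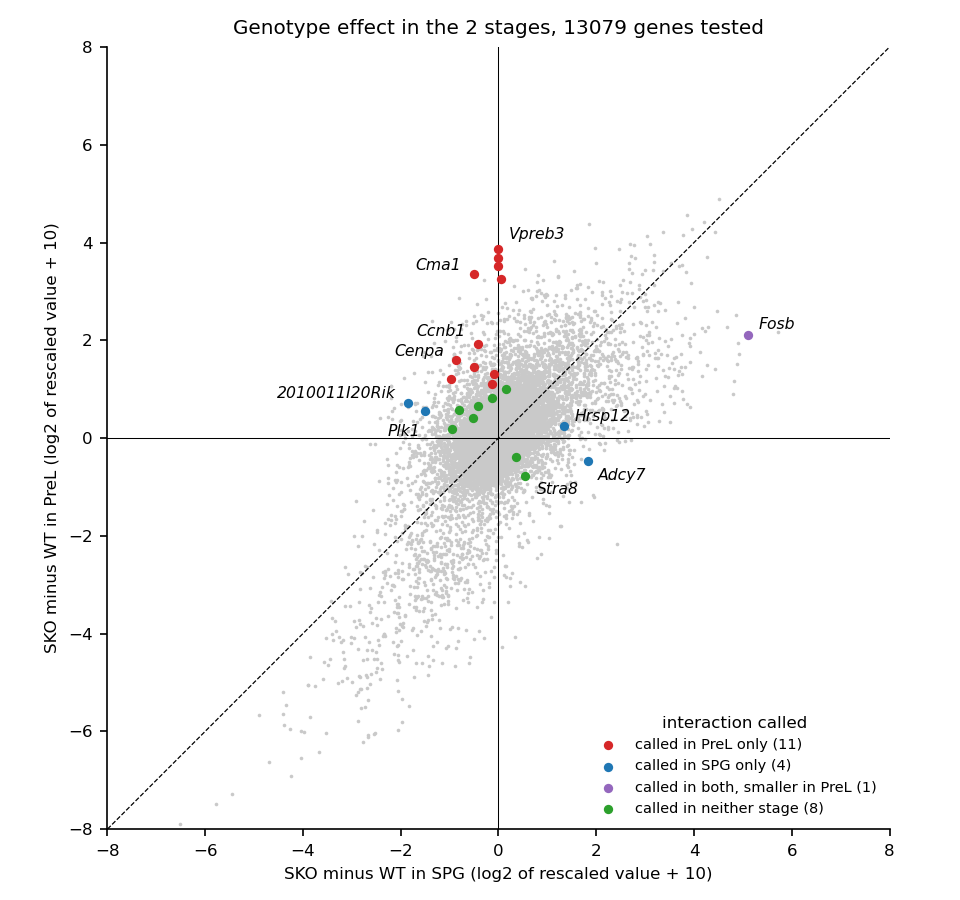
SKO effect in SPG (x axis) against SKO effect in PreL (y axis), both log2 of rescaled value + 10, for the 13079 genes tested (grey) and the 24 called for the interaction (coloured by the stage in which the genotype effect passed the limits); the dashed line marks equal effects. Cenpa and Ccnb1 lie above the line at the upper left, Stra8 below it in the lower right, and Fosb far below it at a SPG effect of 5.11.

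Effects lost at meiotic entry were fewer. Besides Plk1 this class held 2010011I20Rik (Fam210b in RefSeq), which encodes a mitochondrial protein, Adcy7, an adenylyl cyclase, and Hrsp12 (Rida in RefSeq), a deaminase of reactive imines. 2010011I20Rik had 321, 304 and 297 in WT SPG, 72.0, 78.1 and 85.6 in SKO SPG, 176, 117 and 86.6 in WT PreL and 245, 229 and 160 in SKO PreL (interaction 2.57, adjusted p = 0.0400). It was low in SKO SPG, and its genotypes overlapped in PreL. Adcy7 had 52.1, 79.6 and 46.2 in WT SPG, 231, 228 and 231 in SKO SPG, 165, 158 and 249 in WT PreL and 137, 129 and 131 in SKO PreL (interaction -2.29, adjusted p = 0.0483). It was higher in SKO than WT in SPG (1.82, adjusted p = 0.00123), and the SKO values lay below WT in PreL without a call (-0.47, adjusted p = 0.315). Hrsp12 had an effect of 1.33 in SPG (adjusted p = 6.15e-05) and of 0.25 in PreL (adjusted p = 0.243), with an interaction of -1.08 (adjusted p = 0.0483).

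In Fosb (chr7:19302696-19310118), a subunit of AP-1, the effect shrank. It had 2.32, 8.53 and 9.24 in WT SPG and 674, 507 and 497 in SKO SPG, and 37.9, 31.7 and 16.0 in WT PreL against 170, 203 and 97.0 in SKO PreL. SKO was above WT in both stages, by 5.11 in SPG (adjusted p = 2.18e-06) and 2.10 in PreL (adjusted p = 0.00230), so the interaction was -3.01 (95% interval -4.21 to -1.80, adjusted p = 0.0483). Of the 29 immediate early genes tested Fosb alone was called (0.184% over all genes), and the median was -0.77. With an unadjusted p under 0.05, 7 were more negative and 0 more positive, against 7.91% and 6.78% over all genes. Fos, its sister subunit, had 160, 154 and 131 in WT SPG, 3040, 1936 and 1442 in SKO SPG, 315, 413 and 472 in WT PreL and 1294, 1834 and 464 in SKO PreL (interaction -2.33, adjusted p = 0.0869). In SKO PreL replicate 3 it was inside the WT range. The median SKO effect of the list was 1.81 in SPG and 1.32 in PreL, and without rescaling the median interaction was 0.19. Without SKO PreL replicate 3 it was -0.56, with 7 more negative. The list summed to 511, 694 and 282 RPM in SKO PreL replicates 1, 2 and 3. It summed to 259 to 300 RPM in WT PreL and 597 to 981 in SKO SPG.

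The remaining 8 called genes passed the limits of a stage in neither, because the effect on each side was under 2-fold. Arl6ip1 (chr7:118118890-118129625), for a protein that shapes the endoplasmic reticulum, was the firmest of these. It had 7887, 7226 and 7391 in WT SPG, 4546, 4016 and 4280 in SKO SPG, 5989, 5521 and 4047 in WT PreL and 7379, 7485 and 8053 in SKO PreL. SKO was below WT in every SPG library and above WT in every PreL library, and the effect went from -0.81 to 0.58 (interaction 1.39, 95% interval 0.99 to 1.78, adjusted p = 0.00652). It was called in all 12 fits without a library and in 10 of 11 other alternatives.

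The others were Stra8, Sacm1l, Jkamp, Zmym3, Chchd2, Ccnb2 and Chmp2a, of which Stra8 and Ccnb2 are described above. Sacm1l, a phosphoinositide phosphatase of the endoplasmic reticulum, had 2157 ± 6.06 in WT SPG, 1123 ± 212 in SKO SPG, 1520 ± 195 in WT PreL and 1719 ± 59.97 in SKO PreL (mean ± SD, n = 3; interaction 1.14, adjusted p = 0.0455). Jkamp, for a membrane protein that binds JNK1, had 2433 ± 191, 2708 ± 107, 1017 ± 37.6 and 2039 ± 59.3 in the same order (interaction 0.84, adjusted p = 0.0483). Zmym3, an X-linked zinc finger gene, had interaction 0.95 and Chchd2, for a mitochondrial protein, 0.93 (adjusted p = 0.0483 for each). Chmp2a, for a subunit of ESCRT-III, was above WT in all SKO SPG libraries and below WT in all SKO PreL libraries (interaction -0.74, adjusted p = 0.0483). Without rescaling the sign of Chmp2a turned, and it was the only one of the 24 for which it did. Exons of Sacm1l and Jkamp overlap a gene on the opposite strand, Slc6a20b and Ccdc175.

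No gene was called in opposite directions in the 2 stages. The SKO effect was called for 988 genes in SPG (7.55%) and for 1393 in PreL (10.7%), and the 449 called in both had the same sign in each. Of the 539 called in SPG alone the interaction was called for 4, and of the 944 called in PreL alone for 11. For most genes called in a single stage the difference between stages was thus not shown. The standard error of an interaction, with a median of 0.41, was larger than that of a stage effect, 0.29. Of the 24 genes called, 18 had estimates of opposite sign in the 2 stages. Genes chosen for a difference between the stages lean to opposite signs, and the share over all genes was not counted.

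Cholesterol synthesis genes lay on the positive side without a call. Of 20 tested 0 were called (0.184% over all genes). With an unadjusted p under 0.05, 9 were more positive and 0 more negative, against 6.78% and 7.91% over all genes. The median was 0.64, with a median SKO effect of -0.81 in SPG and -0.13 in PreL. Insig1, which holds back sterol synthesis, had 1.13 (adjusted p = 0.272) and Idi1, an isomerase of the pathway, 0.74 (adjusted p = 0.140). Sc4mol, a sterol methyl oxidase named after its values were seen, came nearest to a call (1.62, adjusted p = 0.0506), with 1136, 1540 and 892 in WT SPG, 623, 574 and 750 in SKO SPG, 551, 502 and 454 in WT PreL and 962, 1074 and 632 in SKO PreL, so that SKO lay below WT in SPG and above it in PreL.

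Markers of somatic testis cells were uneven between stages and libraries. The Sertoli list had 0 of 14 called (0.184% over all genes) and a median of 1.64. With an unadjusted p under 0.05, 6 were more positive, against 6.78% over all genes. Without SKO PreL replicate 3 the median was 2.47 and 6 were called, and without replicate 2 it was 1.01 with 2 more positive. Sox9, the Sertoli transcription factor, had 712 and 680 in SKO PreL replicates 1 and 2 and 83.6 in replicate 3, inside the WT PreL values of 24.8, 22.2 and 103. Ctsl, a cathepsin, had 0.66 (adjusted p = 0.323) and Cst9, a cystatin, 1.48 (adjusted p = 0.611). The Leydig list, with 0 of 16 called, had a median of 0.36, of 1.28 without SKO PreL replicate 3 and of -0.15 without replicate 2. Its most read member, Akr1cl, an aldo-keto reductase, had 0.38 (adjusted p = 0.926).

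Markers of macrophages and of connective tissue lay on the negative side. Of 15 macrophage and MHC class II genes 0 were called, 8 were more negative with an unadjusted p under 0.05, and the median was -1.84. Over all genes tested 0.184% were called and 7.91% were more negative by that limit. These genes summed to 361 to 524 RPM in SKO SPG, 118 to 332 in SKO PreL, 28.2 to 45.1 in WT SPG and 56.2 to 86.9 in WT PreL. The SKO PreL sums were 321, 332 and 118 in replicates 1, 2 and 3. Without SKO PreL replicate 3 the list median was -1.38, with 7 more negative. H2-Ab1, an MHC class II chain, had -2.27 (adjusted p = 0.0752) and Apoe, the lipid carrier, -1.32 (adjusted p = 0.361). The 16 fibroblast and collagen genes gave 0 called, 3 more negative and a median of -0.99, which was -0.63 with 2 more negative without SKO PreL replicate 3, with Dcn (decorin) at -2.34 (adjusted p = 0.469) and Sparc (osteonectin) at -0.89 (adjusted p = 0.679). Peritubular myoid genes gave 0 of 8 (median -1.20) and endothelial genes 0 of 2. The part of these cells in the other results was not tested.

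Markers of later germ cells also lay on the negative side. Over all genes tested 0.184% were called, 7.91% were more negative and 6.78% more positive with an unadjusted p under 0.05. Of 29 late spermatocyte genes Ccnb1 was the only one called. By the unadjusted limit 13 were more negative and 2 more positive, and the median was -1.52. Without SKO SPG replicate 1 it was -1.02 with 7 more negative, and without WT PreL replicate 2 it was -1.09 with 9. Pgk2, the germ cell phosphoglycerate kinase, had 214, 132 and 274 reads in WT SPG, 75, 0 and 31 in SKO SPG, 543, 691 and 333 in WT PreL and 0, 0 and 1 in SKO PreL (adjusted p = 0.136). The 32 spermatid genes tested gave 0 called, 9 more negative and a median of -0.96, with 5 more negative without WT PreL replicate 2. Odf2, an outer dense fiber gene, had -0.81 (adjusted p = 0.136) and Tex101, a germ cell surface protein, 0.20 (adjusted p = 0.855).

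The remaining lists had 0 called genes, near the 0.184% called over all genes for lists of these sizes. Over all genes 6.78% were more positive and 7.91% more negative with an unadjusted p under 0.05. Undifferentiated spermatogonia markers (16 tested) had a median of 0.46 and 4 more positive with an unadjusted p under 0.05, with Taf4b at 0.27 and Foxo1, a factor of stem cell upkeep, at 0.48. Of the 16 estimates 15 were above 0 and 1 below. The 22 genes of this list in the table summed to 486 to 544 RPM in SKO PreL and to 317 to 413 in the other groups. Differentiating spermatogonia markers (19) had a median of 0.00, with Dazl, an RNA-binding protein of germ cells, at 0.15. NAT10, snoRNP and ribosome biogenesis genes (41) had a median of -0.12, with Npm1, a nucleolar protein, at -0.15. Cytosolic ribosomal protein genes (59) had a median of 0.16, 9 more positive and 2 more negative. The medians were 0.46 for interferon-stimulated genes (17; 0.81 without SKO PreL replicate 3 and 0.21 without WT SPG replicate 2), 0.00 for heat shock genes (17), 0.03 for p53 targets (19), -0.09 for ATF4 targets (15) and 0.02 for chromatin silencing genes (23). The 5 red blood cell genes were too low to be tested.

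**Figure D5:**
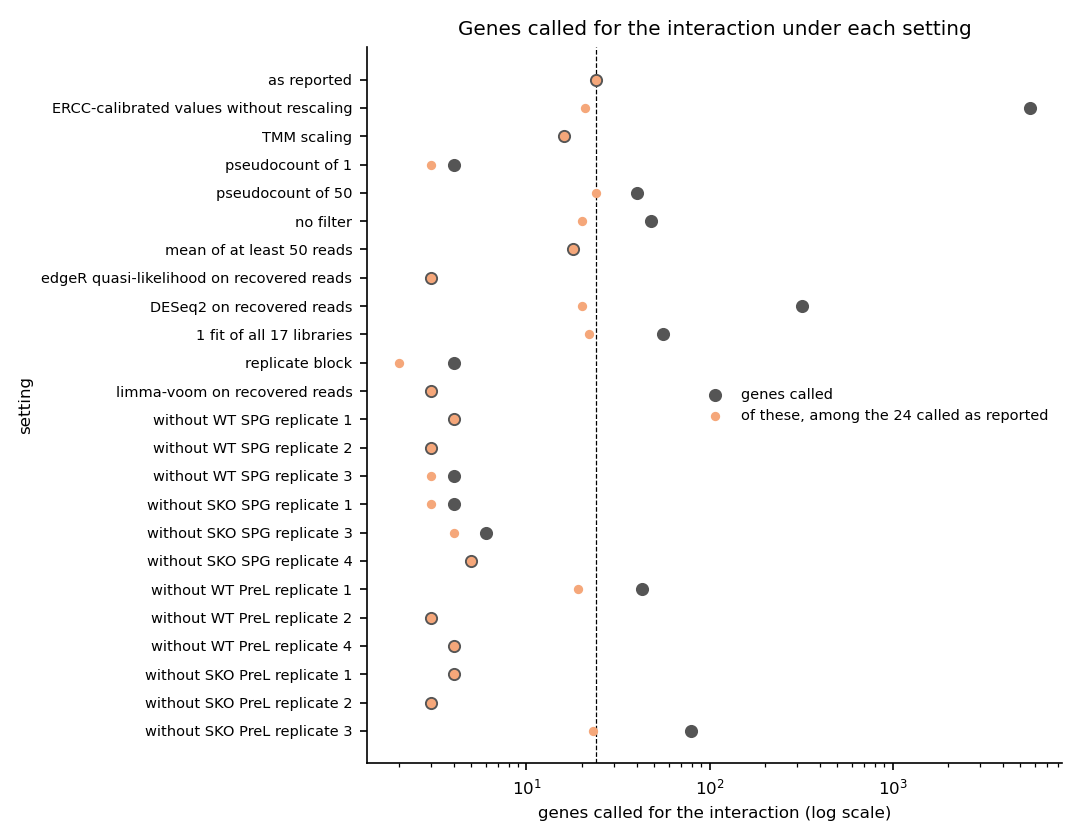
Number of genes called for the interaction (x axis, log scale) under each setting, in dark, and how many of them are among the 24 reported, in orange; the dashed line marks 24. Leaving out SKO PreL replicate 3 gives 79 genes and WT PreL replicate 1 gives 43, while leaving out any other library gives 3 to 6.

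The count of calls depended on every library. Without SKO PreL replicate 3, 79 genes were called, 23 of the 24 among them, and without WT PreL replicate 1, 43 genes, 19 of the 24 among them. Without any 1 of the other 10 libraries 3 to 6 genes were called. The 24 genes kept their sign in every one of these fits, and the 3 genes called in all of them were Cenpa, Ccnb1 and Arl6ip1. With TMM scaling 15 genes were more positive and 1 more negative. On the recovered reads edgeR called 3 genes (1799 with an unadjusted p under 0.05) and DESeq2 321, of which 41.7% were more positive.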

How the data were processed

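Of the 17 Smart-seq2 libraries, the 12 of SPG and PreL cells entered. Per the labels and the study's methods, the authors aligned paired-end reads with TopHat2 (2.1.1), counted reads per gene with HTSeq (0.11.2) and processed them with Cufflinks (2.2.1) and DESeq2, on mm10 (mm9 is listed too). The deposited table holds a signal per gene, the read count times a factor that the authors set from the ERCC spike-in. Dividing each column by its smallest value above 0 gave whole reads for 100% of values (within 0.001 reads), and 0 columns had no sample.

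Genes under a mean of 10 reads over the 12 libraries were left out. Each library was rescaled by its median-of-ratios size factor, and log2(value + 10) was fitted with limma (3.58.1, trend; R 4.3.3), 1 mean per group. Fold changes are on the log2(value + 10) scale, which understates the change of low genes, and adjusted p-values are Benjamini-Hochberg over all genes tested. The interaction was called at an adjusted p under 0.05, a stage effect also above 1 on the log2 scale. Classes follow the stage calls: an effect that appears was called in PreL only, a lost one in SPG only, a shrinking one in both.

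The genes named are Nat10, up to 4 called genes with a mean of 100 or more reads per class and direction, up to 3 called members of each list and the most read members of lists with no call. The other called genes, and Ccna2, Ube2c, Cdk1, Kif20a, Cdc20, Top2a, Sc4mol, Fos, Pou2af1, Pgk2, Cyp26b1 and Sox9, were added after their values were seen. Members and lists were chosen with earlier results of these data known, and the B cell progenitor and mast cell lists and the TTTGAA and CCAAT motifs after the calls. Alternatives were the ERCC values without rescaling, TMM, pseudocounts of 1 and 50, no filter and a minimum mean of 50 reads, edgeR (4.0.16) and DESeq2 (1.42.0) on recovered reads, all 17 libraries in 1 fit, a replicate block, a limit of 1 on the interaction, 12 fits without a library, and limma-voom, added after the data were seen. The scripts were tested on simulated data, in which 200 genes were given a known interaction. The limma fit recovered 19 of them at 2-fold and 140 at 4-fold, with 3 and 7 false calls. A list without a call therefore does not show that none of its genes differed. Promoters and positions are from RefSeq (GRCm38.p6), found for 23 of the 24 called genes, 2 by synonym, with exon overlaps from GENCODE.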

Additional observations from a re-analysis of the deposited data

Results flagged for a closer look

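The SKO effect differed between SPG and PreL, by the limma test of the difference itself, for 24 genes, given here with the interaction (log2, PreL minus SPG, n = 3 libraries a group). The mitotic genes were Cenpa (2.46), Ccnb1 (2.34), Plk1 (2.07) and Ccnb2 (1.08). The genes of B cell precursors and mast cells, whose values depend on the pseudocount, were Vpreb3 (3.86), Igll1 (3.68), Ly6d (3.51), Cma1 (3.86) and Cpa3 (3.19). They passed the filter only through SKO PreL. The transcripts related to ribosomal RNA were Rn45s (1.95) and Gm20594 (1.40). The other genes more positive in PreL were 2010011I20Rik (2.57), Pcmtd2 (2.18), Arl6ip1 (1.39), Nudcd2 (1.24), Sacm1l (1.14), Zmym3 (0.95), Chchd2 (0.93) and Jkamp (0.84). The genes more negative in PreL were Fosb (-3.01), Adcy7 (-2.29), Stra8 (-1.31), Hrsp12 (-1.08) and Chmp2a (-0.74). Cenpa, Ccnb1 and Arl6ip1 were called in all 12 fits without a library, Stra8 in 4 of them and each of the other 20 in 1 to 3.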

How the results depend on the processing

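The counts below give genes more positive in PreL, more negative in PreL, appearing in PreL and lost in PreL, in this order, and are 19, 5, 11 and 4 as reported, with 0 reversing. They were 5556, 112, 1892 and 309 without rescaling (30 reversing), 15, 1, 10 and 2 with TMM, 4, 0, 3 and 0 with a pseudocount of 1, and 23, 17, 16 and 6 with a pseudocount of 50. They were 36, 12, 30 and 8 without a filter (1 reversing), 14, 4, 6 and 4 with a minimum mean of 50 reads, and 16, 4, 11 and 4 with the limit of 1 on the interaction. They were 3, 0, 2 and 0 with edgeR and with limma-voom, 134, 187, 113 and 62 with DESeq2 (1 reversing) and 38, 18, 22 and 15 with all 17 libraries. Without 1 library each they ran from 3 to 60, 0 to 19, 2 to 45 and 0 to 12, with 0 to 2 reversing, the highest without SKO PreL replicate 3. The cause was not tested. With the replicate block they were 3, 1, 3 and 1, but shared numbers did not pair the libraries (correlations of deviations from -0.08 to 0.14, 2 of 13 pairs above 0.1). Without rescaling the sign turned for Nat10 (0.55), Chmp2a (0.25), Sparc (0.11), Odf2 (0.19), Pcna (0.86), Rfc4 (0.50), Npm1 (0.85) and Top2a (0.64). It also turned for Akr1cl with the block (-0.42) and without a library (-0.35 to 1.48), and for Tex101 without a library (-0.15 to 0.49). With 3 libraries a group the median SE of an interaction was 0.41, which limits what could be called.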

Other observations

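The next stage of the series, leptotene and zygotene cells (LZ), with 2 WT and 3 SKO libraries, gives values for the same genes from a fit of all 17 libraries, where 4766 of 13530 genes (35.2%) were called. Of the genes called for the interaction and higher in SKO PreL (adjusted p under 0.05), Nudcd2 (1.15, adjusted p = 1.12e-05), Ly6d (1.80, adjusted p = 0.0195), Igll1 (1.41, adjusted p = 0.0365) and Fosb (1.27, adjusted p = 0.0422) were called higher in SKO LZ as well. Ccnb1 (0.99, adjusted p = 4.52e-05), Cenpa (0.58, adjusted p = 0.00457) and Chchd2 (0.60, adjusted p = 0.00501) were above WT in LZ by less than 2-fold. Ccnb2 was lower in SKO LZ (-1.42, adjusted p = 2.38e-06), and Plk1 had 0.28 (adjusted p = 0.420). Of the 25 G2/M genes 3 were called higher and 3 lower in SKO LZ. Rn45s was lower in SKO LZ (-2.86, adjusted p = 1.00e-07), against 1.45 in PreL. Gm20594 was lower in SKO LZ too (-0.57, adjusted p = 0.0209), against 1.31 in PreL. Stra8 had -0.10 (adjusted p = 0.638) and Arl6ip1 -0.15 (adjusted p = 0.421). Ly6d had 0 and 0 reads in WT LZ and 1, 5 and 21 in SKO LZ. Igll1 had 0 and 16 reads in WT LZ and 10, 8 and 12 in SKO LZ, which overlap. A read weighed more in SKO LZ after rescaling. In SKO LZ replicate 1, 1 read of Ly6d became 5.46, while 4 reads of Cpa3 became 5.65 in WT LZ replicate 2. The LZ estimates of genes with few reads are therefore uncertain. Vpreb3 had 0.90 (adjusted p = 0.233), Cpa3 -0.32 (adjusted p = 0.583), and Cma1 had 0 reads in all 5 LZ libraries. Whether the effects differ between PreL and LZ was not tested.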
